A study of Mus musculus with 6 samples.

Results

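The replication-dependent histone genes were examined in RAW264.7 cells, a transformed and dividing mouse macrophage line, cultured on polyetheretherketone (PEEK), a polymer of bone implants. They were taken as every gene whose symbol in the platform annotation is that of a core or linker histone of this type, and 54 of the 19505 genes measured were found, with 5 linker H1 genes, 13 H2A, 15 H2B, 10 H3 and 11 H4 genes. By their older names, 46 belong to the Hist1 cluster and 8 to the Hist2 cluster. A further 9 of 63 protein-coding genes that RefSeq (GRCm38.p6) names in this way were not analysed here. Total RNA was hybridised to 6 Affymetrix arrays: 3 samples of cells grown on pristine PEEK served as controls, and the other 3 came from modified PEEK. The labels do not say how the polymer was modified. Every sample had 3 days of culture in the same serum-containing medium with antibiotics. Whether the 3 samples per surface were separate cultures or independent experiments is not stated. The p-values therefore reflect only how these samples vary, in part perhaps for technical reasons.

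Histones package DNA into nucleosomes. H2A, H2B, H3 and H4 form the protein core around which DNA is wrapped, and H1 binds the DNA where it enters and leaves that core. A dividing cell must make a second set of histones as it copies its genome, and the replication-dependent genes serve this need: they lie in clusters, have no introns in their main transcripts, and their mRNA ends in a stem-loop instead of a poly-A tail. Their transcription and mRNA stability rise in S phase and fall when DNA synthesis stops, so their level in a culture is known to follow how much DNA synthesis is under way. Of the replacement histones, H3.3 is made throughout the cell cycle from polyadenylated mRNA.

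All 54 histone genes were higher on modified PEEK, each at an adjusted p under 0.05 in limma's linear model over all genes with Benjamini-Hochberg adjustment, where 5.24% of all genes were higher and 10.4% were called in either direction. Their median change was 1.09 on the log2 scale, or 2.14-fold, against 0.0088 for all genes. Single genes ranged from 0.46 ± 0.10 (SE) for the germ cell linker gene H1f6 to 1.87 ± 0.09 for the linker gene H1f1. The 3 modified arrays lay above the 3 pristine arrays for all 54 genes, which held for 14.3% of all genes. At least a 2-fold rise was seen in 32 histone genes (59.3%), against 0.995% of all genes, and these 32 were 16.5% of the 194 genes that rose so far. In RNA from a whole culture, more cells in S phase and more histone mRNA per cell cannot be told apart.

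Signals are deposited log2 values between 0.941 and 12.4, and array medians over genes were 4.98 to 5.10. Of all 19505 genes, 1023 were higher on modified PEEK and 1004 (5.15%) lower. The number higher was 633, 654 and 594 without pristine PEEK replicate 1, 2 and 3, and 673 without modified PEEK replicate 3. The number lower was 608, 585 and 548 without those pristine arrays and 627 without modified PEEK replicate 3. Background was set at 3.72, a value that 95% of 1412 odorant and vomeronasal receptor genes did not exceed. Of 9 measured macrophage markers, 8 lay above it and Mertk did not; 2 of the 9 were higher on modified PEEK and 2 lower. Markers of other cell types above it on average were 2 of 5 for T cells, 1 of 3 for B cells, 2 of 4 for fibroblasts, 3 of 4 for epithelium and 2 of 5 for germ cells, at means of up to 5.90, and none of the genes on these 5 lists passed the test. The poly-A spike-in controls stood at 6.96 ± 0.15 (SD, n = 3) for pristine and 6.71 ± 0.14 for modified PEEK, with a two-sided p of 0.20 by an exact permutation test that cannot go below 0.10. Hybridisation spike-in controls also read lower on modified PEEK, at 9.31 ± 0.08 for pristine and 9.14 ± 0.11 for modified (p = 0.20 by the same permutation test).

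**Figure D1:**
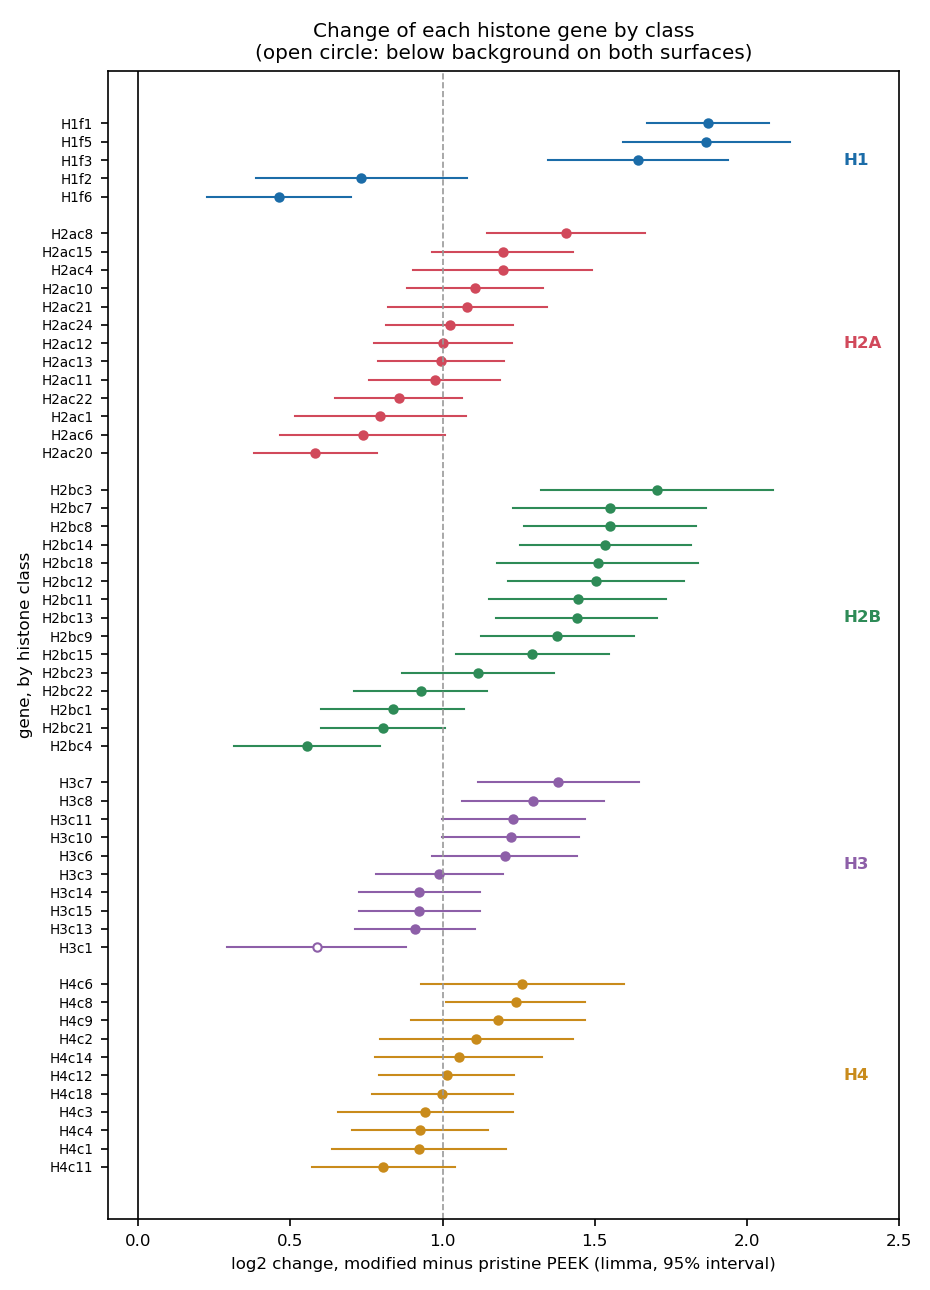
The horizontal axis is the log2 change, modified minus pristine PEEK, of each of the 54 histone genes with its limma 95% interval, in order of size within the 5 classes. Every interval lies above 0, and the dashed line marks a 2-fold rise; the open circle is H3c1, below background on both surfaces.

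Classes differed in their median change, at 1.64 for H1, 1.44 for H2B, 1.10 for H3, 1.01 for H4 and 1.00 for H2A. The H3 median was 1.20 without H3c1, which lay below background. Differences between classes were not tested, and the ranges of the classes overlapped. Within H1 the changes ran from 0.46 to 1.87, within H2B from 0.55 to 1.70, within H3 from 0.91 to 1.38 for the 9 genes above background, within H2A from 0.58 to 1.41 and within H4 from 0.81 to 1.26. The H4 genes encode the same protein in many copies. The number at least 2-fold higher was 3 of 5 for H1, 11 of 15 for H2B, 5 of 10 for H3, 6 of 11 for H4 and 7 of 13 for H2A.

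Arrays of a surface also differed from each other in a way the histone genes shared. Pristine PEEK replicate 1 held the lowest of the 3 pristine values for 47 of 54 histone genes, where it did so for 34.6% of all genes. Modified PEEK replicate 2 held the lowest modified value for 37 of 54, against 33.7% of all genes. The histone genes of replicate 1 lay 0.12 below their pristine means in the median, a small part of the change between surfaces. Without pristine PEEK replicate 1 the median change of the 54 genes was 1.00, and it was between 1.06 and 1.15 without any other array.

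**Figure D2:**
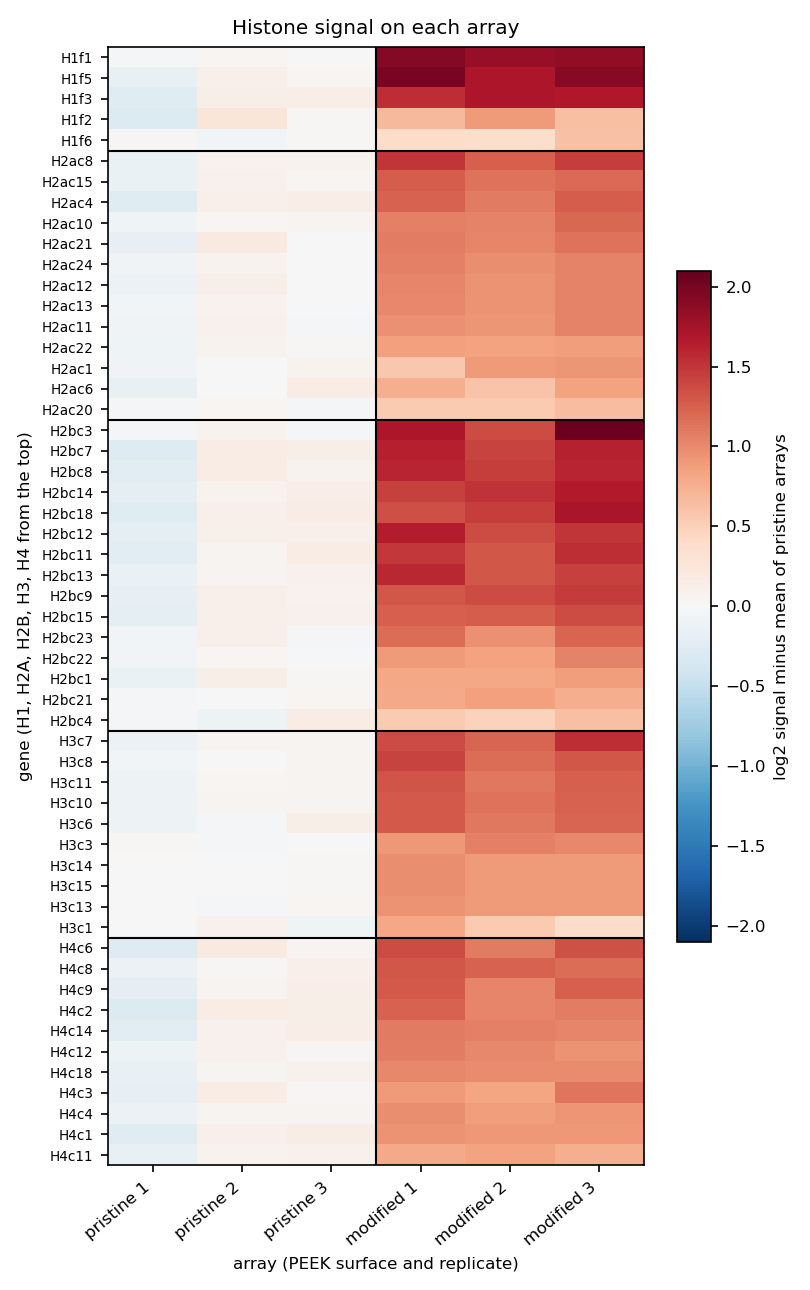
Colour gives the log2 signal of each histone gene on each of the 6 arrays minus its mean on the 3 pristine arrays, with classes separated by black lines. All 3 modified columns are redder than the pristine columns in every row, and the column of pristine replicate 1 is pale blue, below the pristine mean, for most genes.

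The linker histone genes held both the largest and the smallest rises. H1f1 read 7.31, 7.37 and 7.32 on pristine PEEK and 9.25, 9.16 and 9.20 on modified PEEK. The groups were far apart beside the spread of 0.03 to 0.05 (SD, n = 3) within each, and H1f1 rose by 1.87 ± 0.09 (SE), or 3.66-fold (limma adjusted p = 4.02e-05), the 4th largest rise of all genes. H1f5 read 6.69, 6.96 and 6.89 on pristine PEEK and 8.84, 8.55 and 8.76 on modified PEEK, a 3.65-fold rise and the 5th largest. H1f3 read 7.17, 7.55 and 7.57 on pristine PEEK and 8.98, 9.12 and 9.11 on modified PEEK, with pristine replicate 1 the lowest, and rose by 1.64 ± 0.13 (SE; adjusted p = 0.000271). These genes encode somatic H1 subtypes made mainly in dividing cells.

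H1f2, which encodes another somatic subtype, changed much less. It read 6.61, 7.16 and 6.93 on pristine PEEK and 7.58, 7.78 and 7.52 on modified PEEK. Its groups did not overlap, but the pristine values spread over more than 0.5, and the rise was 0.73 ± 0.15 (SE; adjusted p = 0.0183). The 95% interval of its change, 0.39 to 1.08, lies below the intervals of H1f1, H1f5 and H1f3, the lowest of which begins at 1.35. H1f2 did not pass without pristine replicate 3 (adjusted p = 0.0594), modified replicate 2 (0.0566) or modified replicate 3 (0.0514), in a range over all alternatives from 8.68e-05 to 0.0594. H1f6, the testis linker histone gene, read 3.77, 3.69 and 3.76 on pristine PEEK and 4.13, 4.11 and 4.36 on modified PEEK, next to the background of 3.72. Its call (adjusted p = 0.0257) did not hold when any single pristine array (0.0751, 0.102 and 0.0878 for replicates 1 to 3) or modified replicate 3 (0.0782) was left out, nor with the replicate block (0.0707) and with an intensity trend (0.0758), in a range from 0.0112 to 0.102. Only 3 H1 genes passed without pristine PEEK replicate 3 or without modified PEEK replicate 3.

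The promoters of the linker genes are shown because H1 genes share a short set of elements before their start, and the genes that rose most and least can be set side by side. Each stretch is the 130 bases before the RefSeq start, 5′ to 3′ on the gene's strand (GRCm38.p6). They are chr13:23763538-23763667 on the plus strand for H1f1, chr13:21780626-21780755 on the minus strand for H1f5, chr13:23554902-23555031 on the plus strand for H1f3 and chr13:23738677-23738806 on the plus strand for H1f2. Capitals mark exact matches on either strand to the H1 box, the CCAAT box or the TATA box. The H1 box, an element named for H1 promoters, was searched as AAACACA. The CCAAT box was searched by the letters of its name. The TATA box was searched as TATAAA.
H1f1: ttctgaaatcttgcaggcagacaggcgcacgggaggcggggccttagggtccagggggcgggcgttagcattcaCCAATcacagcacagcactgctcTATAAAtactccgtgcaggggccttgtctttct
H1f5: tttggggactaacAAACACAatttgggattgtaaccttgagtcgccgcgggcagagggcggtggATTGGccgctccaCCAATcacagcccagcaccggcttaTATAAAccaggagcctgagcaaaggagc
H1f3: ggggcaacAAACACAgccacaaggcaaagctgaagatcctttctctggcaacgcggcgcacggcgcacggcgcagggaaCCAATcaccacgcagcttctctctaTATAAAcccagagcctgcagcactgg
H1f2: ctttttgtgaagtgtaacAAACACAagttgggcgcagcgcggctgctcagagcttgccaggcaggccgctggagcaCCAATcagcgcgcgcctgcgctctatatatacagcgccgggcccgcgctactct
All 4 hold CCAAT on the gene's strand between bases -56 and -47 before the start, counted with -1 as the base next to it. The H1 box is present in H1f5, H1f3 and H1f2 and not in this window of H1f1. A TATA box stands close to the start of H1f1, H1f5 and H1f3, whereas the H1f2 window has no exact match but holds the like letters tatata. Matches describe these letters and say nothing of binding.

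Among H2A genes, which encode a core histone, H2ac8 had the largest change. It read 9.16, 9.38 and 9.38 on pristine PEEK and 10.81, 10.55 and 10.76 on modified PEEK, so that every modified value was more than 1 log2 unit above every pristine value, and rose 2.65-fold (adjusted p = 0.000287). H2ac15 read 9.78, 10.00 and 9.96 on pristine PEEK and 11.19, 11.05 and 11.10 on modified PEEK, a rise of 1.20 ± 0.10 (SE). H2ac4 read 9.54, 9.90 and 9.93 on pristine PEEK and 11.02, 10.87 and 11.06 on modified PEEK, with pristine replicate 1 again the lowest, and changed by 1.20 ± 0.13. H2ac10 rose 2.15-fold (adjusted p = 0.000411), from 9.84 ± 0.08 to 10.95 ± 0.09 (SD, n = 3). H2ac21, of the Hist2 cluster, read 6.42, 6.78 and 6.59 on pristine PEEK and 7.68, 7.63 and 7.73 on modified PEEK and rose 2.12-fold.

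The other 8 H2A genes rose by 0.58 to 1.02. H2ac11, H2ac13 and H2ac24 had values within 0.1 of each other on every array and may not be 3 separate measurements. H2ac20, also of the Hist2 cluster, had the smallest change of the class, from 10.87 ± 0.04 to 11.45 ± 0.05 (SD, n = 3; adjusted p = 0.00450). H2ac1, encoding a testis H2A, read 6.70, 6.80 and 6.85 on pristine PEEK and 7.34, 7.68 and 7.72 on modified PEEK, well above background on both surfaces, and rose by 0.80 ± 0.12 (SE). The germ cell markers Ddx4, Sycp3 and Tnp1 had means below background on both surfaces, and Dazl and Prm1 lay above it on average. Histone genes are close copies of each other, probe sequences were not used here, and how far such a probe set reads its relatives was not tested.

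H2B genes, which encode the partner of H2A in the nucleosome, had the largest median among the core classes. H2bc3 read 7.00, 7.12 and 7.00 on pristine PEEK and 8.73, 8.41 and 9.10 on modified PEEK. Its modified arrays were the most variable of all histone genes (SD 0.34, n = 3), yet the lowest of them was more than 1 unit above the highest pristine array, and the rise was 3.26-fold (adjusted p = 0.000563). H2bc7 read 8.11, 8.54 and 8.51 on pristine PEEK and 10.02, 9.80 and 9.99 on modified PEEK and rose by 1.55 ± 0.14 (SE). H2bc8 read 7.01, 7.40 and 7.32 on pristine PEEK and 8.84, 8.70 and 8.85 on modified PEEK, a 2.93-fold rise (adjusted p = 0.000271). H2bc14 rose 2.90-fold, from 8.42 ± 0.18 to 9.96 ± 0.12 (SD, n = 3). H2bc18, of the Hist2 cluster, read 8.10, 8.45 and 8.50 on pristine PEEK and 9.71, 9.80 and 10.07 on modified PEEK and rose 2.85-fold, so a gene outside the Hist1 cluster was among the 5 largest changes of this class.

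Of the other 10 H2B genes, H2bc12, H2bc11, H2bc13, H2bc9 and H2bc15 rose by 1.29 to 1.50, and the remaining 5 by 0.55 to 1.12. H2bc1, encoding a testis H2B, read 3.87, 4.14 and 4.03 on pristine PEEK and 4.83, 4.83 and 4.89 on modified PEEK, close to background, and changed by 0.84 ± 0.10 (SE; adjusted p = 0.00161). H2bc4 had the smallest change of the class. It read 7.68, 7.63 and 7.87 on pristine PEEK and 8.28, 8.20 and 8.35 on modified PEEK, with groups that did not overlap and an adjusted p of 0.0123. H2bc4 did not pass without pristine replicate 1 (adjusted p = 0.0545), pristine replicate 2 (0.0572) or modified PEEK replicate 3 (0.0539), in a range over the alternatives from 4.93e-05 to 0.0572.

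H2A and H2B genes often stand next to each other, and in RefSeq's order 10 such neighbouring pairs were measured. In 7 of them the promoter table shows the genes pointing away from each other, so that the same short stretch lies before both. The orientation of H2ac6 with H2bc4 and of H2ac20 with H2bc21 was not determined, since these H2B genes have no promoter entry. The H2B gene had the larger change in 9 of the 10 pairs, by a median of 0.18 and by up to 0.51 (H2bc3 over H2ac4, which do not diverge). H2ac12 and H2bc12 diverge and changed by 1.00 and 1.50, and H2ac11 and H2bc11 by 0.97 and 1.45. H2ac13 and H2bc13 were as far apart, at 0.99 and 1.44. In the other 4 divergent pairs the difference was 0.04 to 0.14, as with 1.41 and 1.55 for H2ac8 and H2bc8. The exception was H2ac6 (0.74) with H2bc4 (0.55). The H2A probe set had the higher signal on pristine PEEK in 9 of the 10 pairs, and the exception was the same pair; the part of the signal range in these differences was not tested. These pairs are a description, with no test of the difference.

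The stretches before H2bc3, H2bc8, H2ac8 and H2bc14 are shown for the octamer ATTTGCAT, an element known from H2B promoters, and because H2ac8 and H2bc8 share theirs. They lie at chr13:23746604-23746733, chr13:23571270-23571399 and chr13:21721914-21722043 on the plus strand and at chr13:23571221-23571350 on the minus strand (GRCm38.p6). Capitals mark the octamer, the CCAAT box, the TATA box and the H1 box on either strand.
H2bc3: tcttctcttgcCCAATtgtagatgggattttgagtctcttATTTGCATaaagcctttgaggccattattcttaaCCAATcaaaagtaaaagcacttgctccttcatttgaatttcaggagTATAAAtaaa
H2bc8: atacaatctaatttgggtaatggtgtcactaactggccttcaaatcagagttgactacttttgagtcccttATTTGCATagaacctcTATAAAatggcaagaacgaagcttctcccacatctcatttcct
H2ac8: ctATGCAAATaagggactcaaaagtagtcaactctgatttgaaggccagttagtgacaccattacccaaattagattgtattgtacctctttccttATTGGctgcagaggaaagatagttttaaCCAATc
H2bc14: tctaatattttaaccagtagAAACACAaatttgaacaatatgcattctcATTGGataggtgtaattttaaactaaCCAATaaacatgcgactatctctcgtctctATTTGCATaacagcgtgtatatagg
H2bc8 has the octamer at bases -59 to -52 and a TATA box at -43 to -38. Read from the other gene, the same octamer is on the opposite strand at -128 to -121 of H2ac8, which also has CCAAT matches at -34 to -30 and -6 to -2.

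Of the 10 H3 genes, whose tails carry many of the known chromatin marks, H3c7 changed most. It read 7.84, 8.02 and 8.01 on pristine PEEK and 9.33, 9.18 and 9.51 on modified PEEK and rose 2.60-fold (adjusted p = 0.000336). H3c8 read 9.46, 9.51 and 9.56 on pristine PEEK and 10.93, 10.67 and 10.82 on modified PEEK, a rise of 1.30 ± 0.10 (SE). H3c11, H3c10 and H3c6 rose by 1.23, 1.22 and 1.20, and H3c10 reached 11.21 ± 0.08 from 9.99 ± 0.09 (SD, n = 3). In each of these the lowest modified array was more than 0.9 above the highest pristine array.

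The 3 H3 genes of the Hist2 cluster changed by 0.91 for H3c13 and 0.92 for H3c14 and H3c15, where the 6 of the Hist1 cluster above background ranged from 0.99 to 1.38. This difference was not tested. H3c14 and H3c15 had equal values on all 6 arrays and so give 1 measurement, and H3c13 lay within 0.03 of them. H3c1 read 1.84, 1.93 and 1.74 on pristine PEEK and 2.65, 2.40 and 2.23 on modified PEEK, below background on both surfaces, so no fold is given. Its adjusted p of 0.0230 went above 0.05 on leaving out any single pristine array (0.0746, 0.0518 and 0.0949 for replicates 1 to 3) or modified replicate 2 (0.0531), in a range from 0.00595 to 0.0949. Among all 1431 pairs of histone genes, 11 had values within 0.1 of each other on every array, and 8 of these were pairs of the same class.

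H4 genes, which encode the partner of H3 in the nucleosome, had the narrowest range of changes. H4c6 read 8.38, 8.86 and 8.71 on pristine PEEK and 10.02, 9.73 and 9.98 on modified PEEK, with pristine replicate 1 the lowest, and rose 2.40-fold (adjusted p = 0.00124). H4c8 read 7.67, 7.82 and 7.89 on pristine PEEK and 9.10, 9.04 and 8.98 on modified PEEK, a 2.36-fold rise (adjusted p = 0.000280). H4c9 rose 2.27-fold, from 6.93 ± 0.17 to 8.11 ± 0.14 (SD, n = 3), and H4c2 2.16-fold, from 9.25 ± 0.24 to 10.36 ± 0.11. H4c14, the H4 gene of the Hist2 cluster, read 8.56, 8.88 and 8.93 on pristine PEEK and 9.88, 9.84 and 9.81 on modified PEEK and changed by 1.05, within the range of the others. The remaining 6 rose by 0.81 to 1.01, and H4c11 changed least, from 10.03 ± 0.14 to 10.83 ± 0.04.

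Before H3c10 and H4c6, at chr13:21717498-21717627 on the plus strand and chr13:23551669-23551798 on the minus strand (GRCm38.p6), the 130 bases before the start are shown as an H3 and an H4 gene beside those above. Capitals are as above.
H3c10: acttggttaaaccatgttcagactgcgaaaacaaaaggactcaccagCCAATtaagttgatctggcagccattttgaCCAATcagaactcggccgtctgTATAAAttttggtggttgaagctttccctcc
H4c6: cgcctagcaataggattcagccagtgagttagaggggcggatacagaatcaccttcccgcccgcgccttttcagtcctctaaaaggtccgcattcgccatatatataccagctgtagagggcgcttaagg
H3c10 holds CCAAT at -83 to -79 and -53 to -49 and a TATA box at -31 to -26. The H4c6 stretch has no exact match to the letters searched but holds the like letters tatata.

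Promoters in the RefSeq table were found for 49 of the 54 genes, and H2bc21, H4c14, H3c7, H2bc4 and H3c1 had no entry. In the 250 bases before the start, CCAAT on either strand was found in 40 of 49 (81.6%), against 33.8% of all 32851 promoters in the table. By class it was in 5 of 5 H1, 13 of 13 H2A, 13 of 13 H2B, 6 of 8 H3 and 3 of 10 H4 promoters. TATAAA, the letters searched for the TATA box, was in 24 (49.0%, against 12.4%), at any position of the window and on either strand. The octamer was in 12 (24.5%, against 1.60%), 6 each of the H2A and H2B promoters and no other class. The H1 box was in 8 (16.3%, against 6.25%), 4 of them H1. TTTCGCGC or TTTGGCGC, forms of the E2F site, was in 7 (14.3%, against 0.654%), 3 H2A and 4 H2B. Divergent neighbours share part of their windows, so a match can be counted for both genes. Of the 167 matches in these windows, 0 overlapped a match to another motif.

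Changes are set here beside the motifs. The 6 H2B genes with the octamer changed by 0.84 to 1.70 (median 1.52) and the 7 without by 0.93 to 1.55 (median 1.38). Among H2A genes the order was the other way, with a median of 0.90 for the 6 with the octamer and 1.02 for the 7 without. H4 genes with CCAAT changed by 0.92 to 0.94 and those without by 0.81 to 1.26. The H1 genes with TATAAA were the 3 with the largest changes, at 1.64 to 1.87, and those without were H1f2 and H1f6. Both of the latter hold the like letters tatata near the start, which were not searched, so this split rests on the exact letters. In H2A the median was 0.86 for the 7 with TATAAA and 1.01 for the 6 without, and in H2B it was 1.50 for 7 and 1.44 for 6. The H2B matches begin anywhere from base -212 (H2bc22, other strand) to -10 (H2bc3). Such a match need not be a TATA box close to the start. No test was made of these differences.

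**Figure D3:**
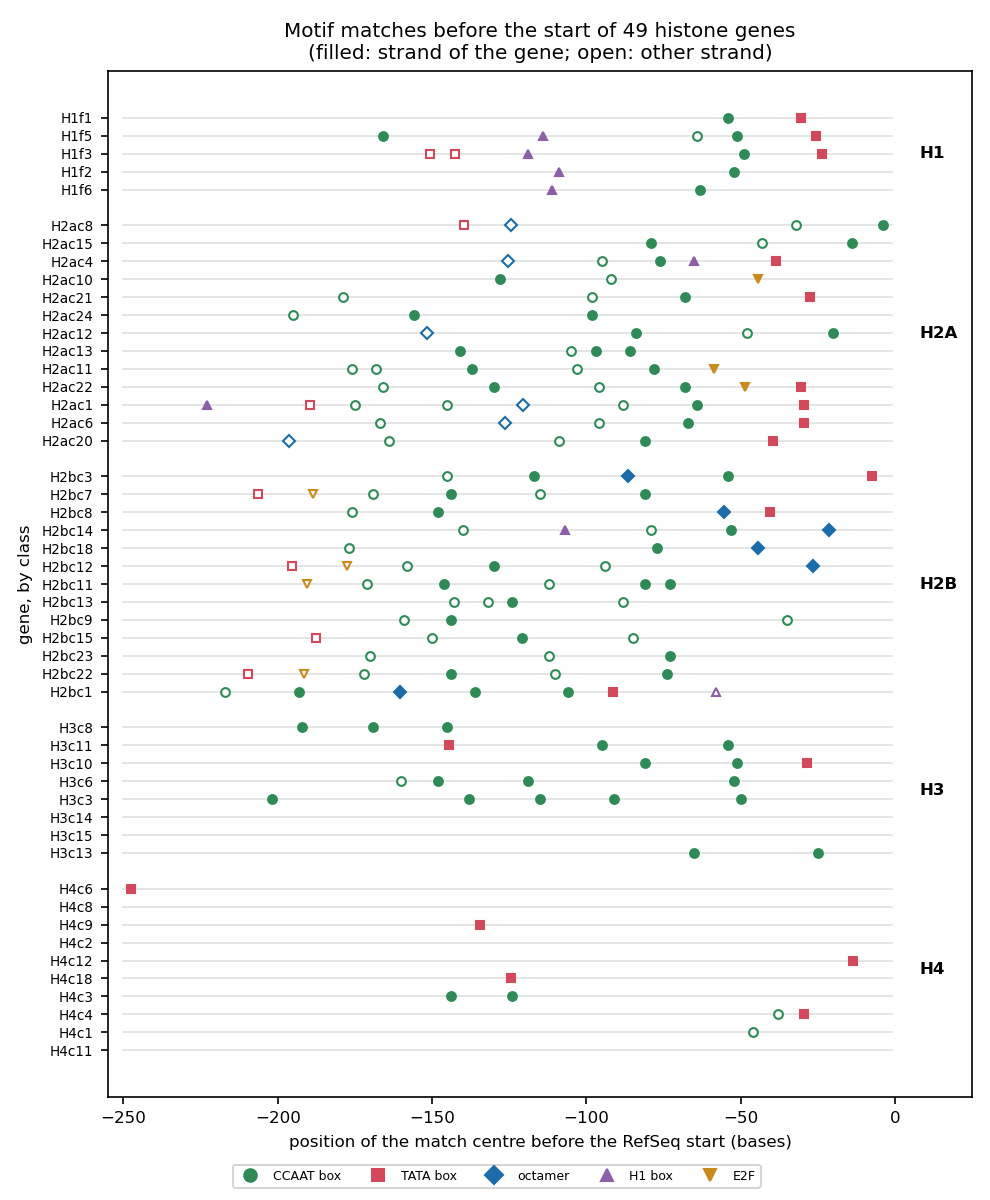
Each row is 1 of the 49 histone genes with a promoter entry, and the horizontal axis is the distance of a match from the RefSeq start in bases. Green circles (CCAAT) are in every H1, H2A and H2B row drawn, in 6 of 8 H3 rows and in 3 of 10 H4 rows; blue diamonds (the octamer) appear in 6 H2A and 6 H2B rows.

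The size of the change also differed between ranges of probe set signal, with no steady rise or fall along them. Sorted by mean signal over all arrays, the 18 brightest histone genes (10.39 to 11.32) changed by 0.58 to 1.23 with a median of 0.98. In the middle 18 (8.65 to 10.39) the changes were 0.94 to 1.55 with a median of 1.34. In the dimmest 18 (2.13 to 8.42) they spread from 0.46 to 1.87 with a median of 1.00. H2A, 1 of the classes with the smaller medians, had 8 of 13 genes among the brightest 18, with modified values of up to 11.78, and all arrays ended at 12.1 to 12.4. The signals of different probe sets are not amounts of RNA, and the part of the signal range in the class differences was not tested.

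**Figure D4:**
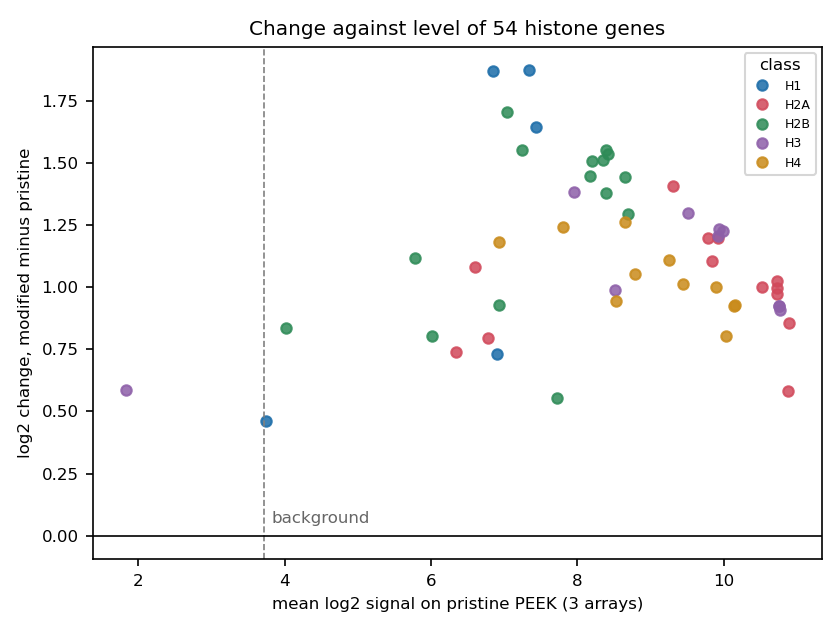
Each point is a histone gene, with its mean log2 signal on the 3 pristine arrays on the horizontal axis and its log2 change on the vertical axis, coloured by class; the dashed line is the background of 3.72. The changes peak at 1.87 between signals of 6 and 8 and are lower at the bright end, where the 3 H3 genes of the Hist2 cluster and several H2A genes lie.

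Genes that make and trim histone mRNA had a median change of 0.08. Of 20 genes listed, 18 were measured, and 1 was higher and 1 lower by limma, against 5.24% and 5.15% of all genes. Slbp, which encodes the protein that binds the histone mRNA stem-loop, read 8.31, 8.25 and 8.27 on pristine PEEK and 8.61, 8.70 and 8.55 on modified PEEK and rose by 0.34 ± 0.09 (SE; adjusted p = 0.0486). That call was lost without any 1 of the 6 arrays (0.0769 to 0.165: 0.121, 0.165 and 0.162 without pristine PEEK replicate 1, 2 and 3, and 0.0769, 0.112 and 0.0821 without modified PEEK replicate 1, 2 and 3), with the replicate block (0.142) and with centring (0.0742), in a range from 0.00145 to 0.165. Lsm10, encoding a subunit of the U7 particle that cuts histone pre-mRNA, read 7.57, 7.46 and 7.57 on pristine PEEK and 7.22, 6.79 and 6.83 on modified PEEK and fell by 0.59 on the log2 scale (adjusted p = 0.0252). Without pristine PEEK replicate 1, 2 or 3 its adjusted p was 0.0870, 0.0606 or 0.0932, without modified PEEK replicate 2 or 3 it was 0.0712 or 0.0990, and scaled to the poly-A spikes it was 0.206, in a range from 0.000456 to 0.206.

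Npat, the coactivator of histone gene transcription, was 8.01 ± 0.06 and 8.28 ± 0.07 (SD, n = 3) and did not pass (adjusted p = 0.124; 0.0204 to 0.350 over the alternatives). Casp8ap2, encoding the processing factor FLASH, read 6.16, 5.96 and 6.35 on pristine PEEK and 6.70, 6.33 and 6.74 on modified PEEK, without overlap except for modified replicate 2, and did not pass either (adjusted p = 0.115). It passed in 5 of 17 alternatives, 1 of them without modified replicate 2 (0.0469), in a range from 0.0227 to 0.314. Lsm11, the partner of Lsm10, had overlapping groups (adjusted p = 0.670). The brightest of those that did not pass were Srrt, Sympk and Cpsf3, with changes of 0.20, -0.02 and 0.11.

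Histone chaperones, which carry new histones to DNA, were higher for 9 of 25 measured genes (26 listed) and lower for 0, against 5.24% and 5.15% of all genes, with a median change of 0.34. Asf1b, the H3-H4 chaperone of dividing cells, read 8.50, 8.55 and 8.52 on pristine PEEK and 9.41, 9.58 and 9.48 on modified PEEK and rose 1.95-fold (adjusted p = 0.000523). Anp32e, a chaperone of H2A.Z, rose by 0.96 ± 0.13 (SE), Hjurp, which places the centromeric H3 variant, by 0.92 ± 0.09, and Nasp, which holds soluble H3-H4, by 0.81 ± 0.11. Hat1, encoding the enzyme that acetylates new H4, read 8.47, 8.49 and 8.49 on pristine PEEK and 9.13, 9.18 and 9.39 on modified PEEK, a 1.68-fold rise (adjusted p = 0.00246). Chaf1a and Chaf1b, subunits of the assembly factor CAF-1 at the replication fork, rose by 0.57 and 0.66. Without pristine PEEK replicate 3 Chaf1b had an adjusted p of 0.0530 (range 4.50e-05 to 0.0530) and Mms22l one of 0.0577 (7.82e-05 to 0.0577), which leaves 7 genes. Npm1, Nap1l1 and Set, the brightest that did not pass, changed by -0.05, 0.25 and 0.22. Without modified PEEK replicate 1, Daxx and Ipo4 passed as lower (adjusted p = 0.0481 and 0.0273; all arrays 0.0666 and 0.0604; 0.0121 to 0.567 and 0.00398 to 0.478 over the alternatives).

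Of 10 measured replacement histones (11 listed), 4 were higher and 1 lower, against 5.24% and 5.15% of all genes, with a median change of 0.32. The list takes in variants whether or not they are made throughout the cell cycle. Cenpa, encoding the centromeric H3, read 8.07, 7.92 and 7.89 on pristine PEEK and 9.43, 9.29 and 9.30 on modified PEEK and rose 2.60-fold (adjusted p = 0.000218). H2ax, the H2A variant that is phosphorylated at DNA breaks, read 8.69, 8.73 and 8.67 on pristine PEEK and 10.02, 9.85 and 9.86 on modified PEEK and rose 2.31-fold (adjusted p = 0.000271), within the range of the replication-dependent H2A genes. H2az2 and H2az1, which encode H2A.Z, rose by 0.72 and 0.56.

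H3f3a and H3f3b, which encode H3.3, changed by 0.33 ± 0.09 and 0.16 ± 0.09 (SE) and did not pass (adjusted p = 0.0598 and 0.360). H3f3a passed in 7 of 17 alternatives: repeated quantile normalization, poly-A spike scaling, each filter and an intensity trend, robust or not. H3f3b passed in 2 of 17, both with an intensity trend. Their adjusted p over all alternatives ran from 0.000260 to 0.213 for H3f3a and from 0.0315 to 0.646 for H3f3b. The 95% interval of the H3f3b change was -0.05 to 0.36. The intervals of the 9 replication-dependent H3 genes above background begin at 0.71 or higher, while that of the dim H3c1 begins at 0.29 and overlaps it. Macroh2a1 changed by 0.32 (adjusted p = 0.0547; 0.000747 to 0.179 over the alternatives). H1f10, a replacement linker gene, fell by 0.44 (adjusted p = 0.0223). The fall did not pass when any single pristine array (0.0911, 0.0825 and 0.0664 for replicates 1 to 3) or modified replicate 1 (0.0521) was left out, nor with the replicate block (0.0890) or with an intensity trend (0.0511). Its change scaled to the poly-A spikes was -0.19 (adjusted p = 0.455, the highest of a range from 0.00354).

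Of 20 listed genes of S phase and DNA copying, 18 were measured, of which 15 were higher and 0 lower, against 5.24% and 5.15% of all genes, with a median change of 0.84. Mcm6 and Mcm5, of the helicase that opens DNA for copying, rose by 1.11 and 1.08, Cdc6, which loads it, by 1.09, Rrm1, of the enzyme that makes deoxynucleotides, by 1.04, and Gins1, of the helicase complex, by 0.98. Pcna, the sliding clamp of DNA polymerase, was 10.67 ± 0.05 and 10.96 ± 0.07 (SD, n = 3) and did not pass (adjusted p = 0.101; 0.000111 to 0.264 over the alternatives, of which 4 passed). Cdt1, a loading factor of the helicase, and E2f1, a transcription factor of S phase genes, had log2 changes of 0.19 and 0.13 and did not pass (adjusted p = 0.340 and 0.673; no alternative passed). Ccne1, encoding cyclin E1, passed (adjusted p = 0.0218) but not without any single pristine array (0.0858, 0.0658 and 0.0917 for replicates 1 to 3), without modified replicate 1 (0.0507) or 2 (0.0514), or with the replicate block (0.0803), in a range from 0.000919 to 0.0917; 14 genes were then higher. Their median signal was 7.37, 7.47 and 7.41 on pristine and 8.15, 8.11 and 8.24 on modified PEEK. The histone median was 8.44, 8.70 and 8.64 on pristine and 9.91, 9.82 and 10.03 on modified PEEK, and pristine replicate 1 and modified replicate 2 were the lowest of their surface in both. Modified replicate 2 was also the lowest modified array in the medians of the other 3 lists. The part of S phase activity in the histone changes was not tested.

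**Figure D5:**
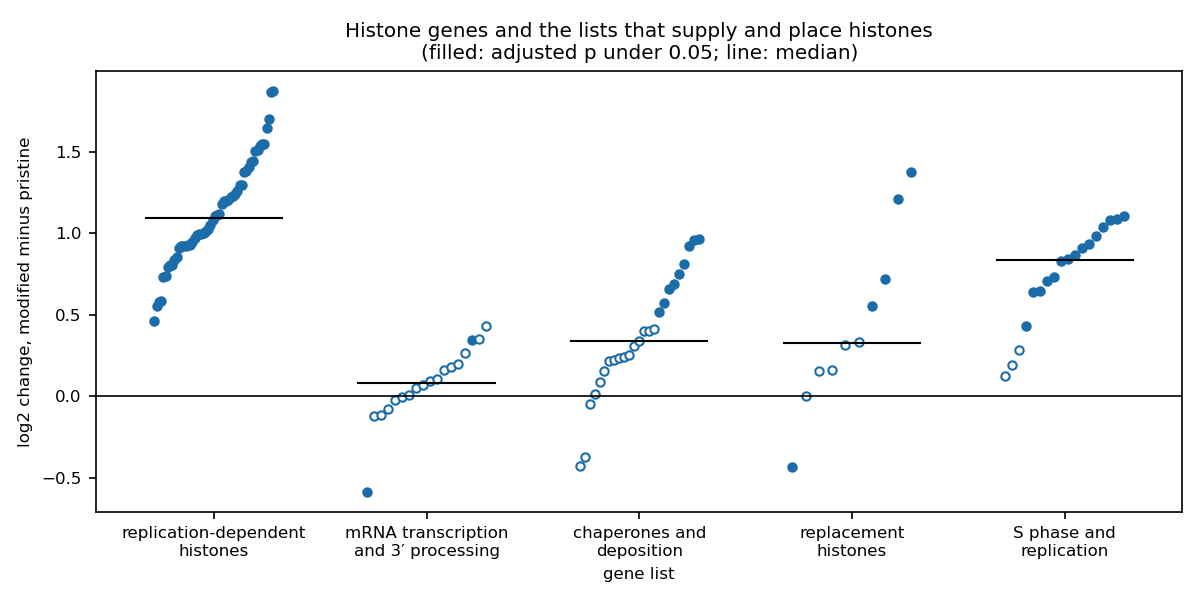
Each point is a gene, placed by its log2 change (vertical axis) in the replication-dependent histones or 1 of 4 other lists; filled points passed limma at an adjusted p under 0.05 and lines are medians. All 54 histone points are filled, with a median of 1.09, against medians of 0.08, 0.34, 0.32 and 0.84 in the other lists.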

How the data were processed

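RNA of 6 samples (250 ng each, per the labels) was hybridised to Affymetrix arrays. The authors deposited log2 signals per probe set, a scale inferred from the values; RMA, a background correction and quantile normalization method, is named in the submitters' processing notes. Such normalization would hide a change in the RNA content of a cell. Platform annotation gave 1 gene to 19572 of 29129 features, and 55 genes with several probe sets, none of them a histone gene here, were taken by their brightest. The comparison used limma 3.58.1 under R 4.3.3 (no trend, no covariate, all genes, Benjamini-Hochberg, 4 residual and 4.09 prior degrees of freedom); the script was tested on simulated data. The array's genome build: not given in the sources used here. The histone genes and the lists were chosen with earlier results of these data known. The 5 genes of each class with the largest change, the germ cell members and up to 5 passing and 3 bright non-passing genes of each list were named. All other histone genes, Mms22l, Daxx and Ipo4 were named after their values were seen. Motifs were searched in RefSeq promoters with Python 3.11.15. Unused sample columns numbered 0. The number of arrays limits precision. Alternatives were 3 rescalings, filters, probe set means, variance models, array weights, a replicate block and leaving out each array.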

Additional observations from a re-analysis of the deposited data

How the results depend on the processing

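Over 17 alternatives no gene examined changed direction with a call, and 50 of the 54 histone genes passed in every alternative that tested them; H1f2, H1f6, H2bc4 and H3c1 did not. Leaving out 1 array gave 51 to 54 histone genes higher, with 3 to 5 for H1, 0 to 1 higher and 0 to 1 lower for mRNA processing, 7 to 9 higher and 0 to 2 lower for chaperones, 14 to 15 higher for S phase genes, 0 to 1 lower for replacement histones, and 594 to 903 higher and 548 to 1048 lower for all genes. Scaled to the poly-A spikes, medians were 1.34 (all histone genes), 1.89 (H1), 1.25 (H2A), 1.69 (H2B), 1.34 (H3) and 1.26 (H4); the median of all genes moved to 0.26, and the histone median relative to it was 1.09. There, 3 processing genes were higher and 0 lower, 0 replacement histones were lower, and 1575 genes in all were higher and 290 lower. The H3 median was 1.20 without the lowest 25% or 50% of genes or those below background, since H3c1 left. Processing genes higher were 0 with centring, 2 without the lowest 25%, 4 without the lowest 50%, 2 without genes below background, 4 with an intensity trend (robust or not) and 2 with array weights. Chaperones were 15 higher without the lowest 50% and 16 with a trend, robust or not; 2 were lower with quantile normalization, each filter, either trend or array weights. Replacement histones were 7 higher with either trend and 0 lower with the plain trend. All genes were 1586 higher and 1719 lower with a trend, 1580 and 1702 with the robust trend, and 1522 lower without the lowest 50%. Under filters the set of genes tested was also smaller. The cause of these shifts was not tested.

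With the replicate block, 53 histone genes were higher, 0 processing genes higher, 0 replacement histones lower, and 646 genes higher and 622 lower in all. Same-numbered arrays did not deviate together (correlations -0.17, -0.16 and 0.07 over genes), so the numbers were not taken as pairs.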

Other observations

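Some replication-dependent histone genes are known to give polyadenylated transcripts as well, which persist in cells that have stopped dividing. H1f2, H2ac6, H2bc4 and H2bc21 are among those named for this. They were picked after their values were seen, so they get no test, and their low ranks can follow from that choice alone. Other genes so named were not gathered here and may have changed more. Whether genes with polyadenylated transcripts changed less than the rest of their class was not tested. H2bc4 (0.55) and H2bc21 (0.80) had the smallest changes of the 15 H2B genes, where the class median was 1.44. H2ac6 (0.74) ranked 2nd from the lowest of 13 H2A genes, whose median was 1.00, and H1f2 (0.73) was 2nd from the lowest of 5 H1 genes, whose median was 1.64. H2bc21 read 5.96, 6.02 and 6.05 on pristine and 6.80, 6.88 and 6.77 on modified PEEK, without overlap. H2ac20, not among these, changed by 0.58.

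By cluster, the 46 Hist1 genes changed by 0.46 to 1.87 with a median of 1.15, and the 8 Hist2 genes by 0.58 to 1.51 with a median of 0.92. The Hist2 genes include no H1 gene, and their median is the value of H3c14 and H3c15, which give 1 measurement. Hist2 and Hist1 medians were 0.83 and 1.00 for H2A and 1.16 and 1.44 for H2B, with 2 Hist2 genes in each class. For H3 they were 0.92 (3 genes) and 1.22, and for H4 1.05 (1 gene) and 1.01. All 46 and all 8 passed limma's test, and the difference between clusters was not tested.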
